A study of Mus musculus with 48 samples.

Results

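The megalin and cubilin receptor complex was followed over the day in mouse kidney through the 4 genes that encode it: Lrp2, Cubn, Amn and Dab2. The members were picked by name from the complex, not by any value, and all 4 were found in every one of the 48 tables and passed the filter on low values. They are 4 of the 12423 genes measured in both assays and of the 11863 genes that were tested. Kidneys came from male C57BL/6JRj mice, 11-12 weeks old, which were kept under a light-dark cycle with lights on at ZT0 (Zeitgeber time) and lights off at ZT12. They carried no labelled mutation or treatment, and time of day was the only condition. At each of 12 timepoints, 2 h apart, 2 replicates were collected, and each replicate was a lysate pool of 2 animals. Each of the 24 pools gave 1 RNA-seq library (total RNA) and 1 RPF-seq library (ribosome-protected fragments, the mRNA pieces shielded by a translating ribosome). Whole kidney was homogenised, so fewer cells of a type and less RNA per cell cannot be told apart.

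Lrp2 encodes megalin, a giant receptor of the lipoprotein receptor family that sits in the apical membrane of the proximal tubule. Cubn encodes cubilin, a large peripheral protein with no membrane anchor of its own. Amn encodes amnionless, the small transmembrane partner that carries cubilin to the cell surface. Dab2 encodes an adaptor that binds the cytoplasmic tail of megalin and links it to the clathrin coat. Together the receptors take albumin, vitamin-binding proteins and other filtered proteins back from the urine, and inherited loss of megalin, cubilin or amnionless in humans causes proteinuria.

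In GENCODE vM21 on GRCm38, Lrp2 (ENSMUSG00000027070) lies on the minus strand at chr2:69424340-69586065 and Cubn (ENSMUSG00000026726) on the minus strand at chr2:13276338-13491813. Amn (ENSMUSG00000021278) lies on the plus strand at chr12:111271095-111276426 and Dab2 (ENSMUSG00000022150) on the plus strand at chr15:6299788-6440712. The receptors have very long coding sequences, 13980 nt for Lrp2 and 10869 nt for Cubn, over 79 and 67 exons. Amn has a coding sequence of 1374 nt in 12 exons and Dab2 one of 2298 nt in 15 exons. Cubn is overlapped on the other strand by Gm13270, and Dab2 by Gm16311 and Gm18888, so reads from those could be counted with them if strand was not used.

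The start codons are shown because ribosome density is read relative to the mRNA, and the start site is where ribosomes enter the coding sequence. The 10 bases on either side of each start codon were read from the RefSeq transcript and GRCm38.p6, 5′ to 3′ along the mRNA, with the ATG in capitals.
Lrp2: cgtctccgcgATGgagcgcgggg
Cubn: gctgcggagcATGgcctcacatt
Amn: cggcggagagATGggtgctctgg
Dab2: ccttcccgtcATGtctaacgaag
The first base of the start codon was at position 69585893 of chromosome 2 for Lrp2, 13491813 of chromosome 2 for Cubn, 111271122 of chromosome 12 for Amn and 6416904 of chromosome 15 for Dab2. All 4 have a purine 3 bases before the ATG, as do 86.4% of the 11452 tested genes with a start context. The base after the ATG is a G in Lrp2, Cubn and Amn, as in 53.0% of genes, and a T in Dab2. The 5′ UTR is short in Amn (26 nt) and Cubn (63 nt), 136 nt in Lrp2 and 283 nt in Dab2, against a median of 157 nt. An upstream ATG was found in Dab2 (1) and in none of the other members, and 52.6% of genes have none.

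The depth behind the deposited values ran from 9858600 to 33577400 reads per RNA-seq library (median 16492100). It ran from 15567500 to 35007800 reads per RPF-seq library (median 22199650). It was recovered from the steps in which low values rise. Even the member with the fewest reads, Amn, rested on at least 2031 reads per RNA-seq library, which allows a counting error of at most 2.22%. The spread between the 2 replicates of a timepoint was larger, 19.0% for Amn in RNA-seq and 6.06 to 8.10% for the other members. Depth moved with time of day: RNA-seq libraries had a median of 18787950 reads from ZT0 to ZT10 and of 13396400 reads from ZT12 to ZT22. All 10 genes of a clock check list passed the rhythm test in both assays with a fold of 1.5 or more. The proximal tubule was well represented, with all 16 markers of its segments tested and none at 0 in any library.

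Megalin was by far the most abundant transcript of the complex. Lrp2 RNA-seq values over the 24 pools ran from 997 RPKM (ZT10, replicate 2) through a median of 1193 to 1496 RPKM (ZT18, replicate 2), with a mean of 1204 ± 119 RPKM (SD, n = 24). RPKM is the number of reads scaled to coding length and to library depth, so it can be compared between genes of unlike length. This placed Lrp2 at rank 53 of the 11863 tested genes. Because its coding sequence is so long, Lrp2 took a still larger share of sequencing. The share was estimated from RPKM times the longest annotated coding length, over the 11784 tested genes with such a length. It was 1.67% ± 0.144 in RNA-seq (SD, n = 24, rank 4) and 1.46% ± 0.0716 in RPF-seq (SD, n = 24, rank 2). The coding length that the authors used for Lrp2 is not known.

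The 3 other members were expressed at a lower level. Cubn ran from 198 to 315 RPKM around a median of 250 RPKM and had a mean of 252 ± 29.3 RPKM (SD, n = 24). Amn ran from 101 to 190 RPKM around a median of 150 RPKM and had a mean of 150 ± 24.3 RPKM (SD, n = 24). Dab2 ran from 130 to 178 RPKM around a median of 156 RPKM and had a mean of 155 ± 13.7 RPKM (SD, n = 24). The lowest Lrp2 value lay above the highest Cubn value, and the ranges of Amn and Dab2 overlapped throughout.

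The order of the transcripts was tested pool by pool, with random sign changes of the paired log2 difference (two-sided permutation test, 100000 resamples, Benjamini-Hochberg adjustment over 18 tests). Lrp2 exceeded Cubn 4.78-fold, Dab2 7.74-fold and Amn 8.06-fold, in 24 of 24 pools each (permutation p = 1e-05, the smallest these resamples can give, adjusted p = 1.38e-05). Cubn exceeded Dab2 1.62-fold and Amn 1.69-fold, also in 24 of 24 pools (permutation p = 1e-05, adjusted p = 1.38e-05). Amn and Dab2, the small partner and the adaptor, were not separated: Amn was higher in 12 of 24 pools and the log2 difference was -0.06 ± 0.33 (SD; permutation p = 0.388, adjusted p = 0.411).

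**Figure D1:**
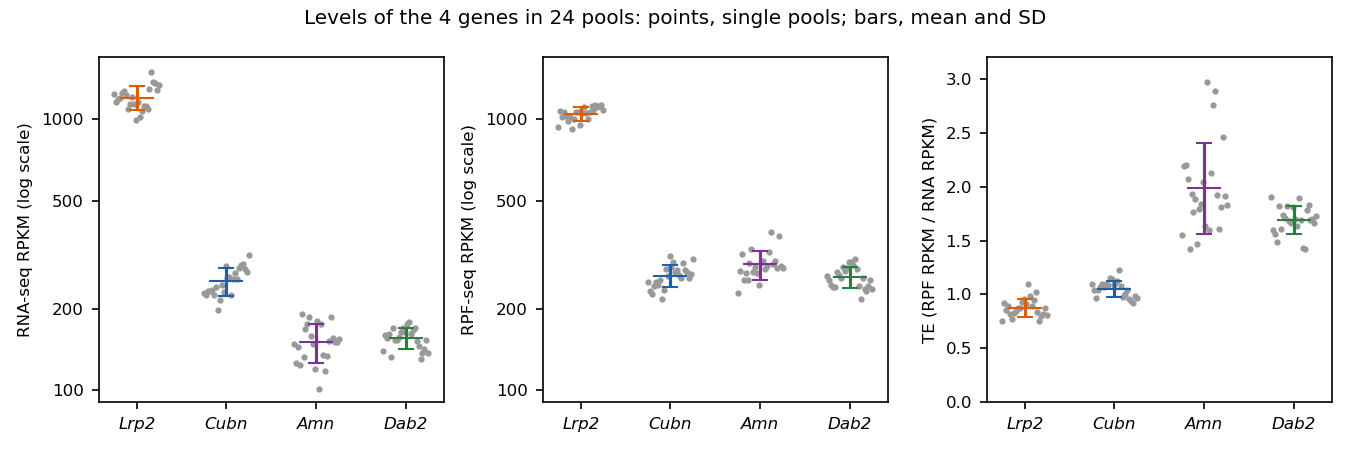
RNA-seq and RPF-seq levels (RPKM, log scale) and translation efficiency (TE, linear scale) of the 4 genes; grey points are the 24 pools and coloured bars the mean ± SD. Lrp2 stands above the other genes in both assays, and the 3 others lie much closer together in RPF-seq (means of 262 to 291 RPKM) than in RNA-seq (150 to 252 RPKM).

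At the level of ribosome footprints the 3 smaller signals came together. Lrp2 footprints ran from 925 to 1130 RPKM around a median of 1063 RPKM (mean 1050 ± 59.6 RPKM, SD, n = 24). Cubn had a mean of 265 ± 24.8 RPKM, Amn of 291 ± 35.3 RPKM and Dab2 of 262 ± 23.9 RPKM (SD, n = 24 each). Lrp2 remained 3.98-fold above Cubn, 3.62-fold above Amn and 4.02-fold above Dab2 in 24 of 24 pools (permutation p = 1e-05, adjusted p = 1.38e-05). Cubn, which had led Amn in RNA-seq, was below it in footprints: it was higher in 4 of 24 pools, with a log2 difference of -0.13 ± 0.23 (SD; permutation p = 0.00744, adjusted p = 0.00893). Amn exceeded Dab2 1.11-fold, in 17 of 24 pools (permutation p = 0.00651, adjusted p = 0.00837). Cubn and Dab2 were not separated, with a log2 difference of 0.016 ± 0.17 (SD; permutation p = 0.646, adjusted p = 0.646). With the replicate 2 pools alone, Cubn and Amn were no longer separated in footprints (adjusted p = 0.116), and neither replicate series alone separated Amn from Dab2 (adjusted p = 0.0535 and 0.115).

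Translation efficiency (TE), the RPF-seq RPKM divided by the RNA-seq RPKM of the same pool, was lowest for megalin and highest for amnionless. Lrp2 TE ran from 0.752 to 1.09 (mean 0.878 ± 0.0837, SD, n = 24) and Cubn TE from 0.925 to 1.22 (mean 1.05 ± 0.0748). Dab2 TE ran from 1.42 to 1.90 (mean 1.69 ± 0.129) and Amn TE from 1.42 to 2.97 (mean 1.99 ± 0.422). The lowest TE of Dab2 and of Amn lay above the highest TE of either receptor. Lrp2 TE was below Cubn TE in 23 of 24 pools, with a log2 difference of -0.27 ± 0.14 (SD; permutation p = 1e-05, adjusted p = 1.38e-05). Amn TE was above Dab2 TE in 18 of 24 pools, by 0.21 ± 0.38 on the log2 scale (SD; permutation p = 0.0124, adjusted p = 0.0139). That last difference rested on the replicate 2 pools, since the replicate 1 pools alone gave 0.062 (adjusted p = 0.645).

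Each assay was scaled on its own, so TE has a meaning only relative to other genes, and it was therefore also tested against the median gene of each pool with limma and Benjamini-Hochberg adjustment over all 11863 genes. Of all genes, 45.6% had a TE above the median gene in that test and 44.8% one below it, so most genes passed it in one direction or the other. Amn lay above the median gene by 1.04 ± 0.054 on the log2 scale (SE; limma adjusted p = 9.77e-16), at percentile 94.6 of all genes. Dab2 lay above it by 0.83 ± 0.027 (SE; limma adjusted p = 6.47e-20), at percentile 89.6. Cubn lay above it by 0.15 ± 0.019 (SE; limma adjusted p = 6.73e-08), at percentile 57.2. Lrp2 was the only member below it, at -0.11 ± 0.024 (SE; limma adjusted p = 8.57e-05) and percentile 44.3. With the mean gene as the reference the difference of Lrp2 changed sign to 0.0053 (limma adjusted p = 0.841).

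For coding sequences of their length, both receptors had a high TE. Across the 11784 tested genes with an annotated coding length, TE was lower in longer genes (Spearman rho = -0.41 across genes, which are not independent replicates, given as a description). The median TE was 1.23 for the 3688 genes under 1000 nt, 0.995 for the 4648 genes from 1000 to 2000 nt and 0.732 for the 2851 genes from 2000 to 4500 nt. It was 0.548 for the 518 genes from 4500 to 9000 nt and 0.464 for the 79 genes of at least 9000 nt, whose quartiles were 0.319 and 0.611. Lrp2 and Cubn both lay above the upper quartile of that longest class, with Cubn at rank 6 and Lrp2 at rank 11 of the 79 by TE. Among these 79 they were also the 2 most abundant by transcript and by footprints. Dab2 and Amn lay above the upper quartile of their own classes too (1.01 and 1.32).

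Most of the nearest neighbours in length show the same contrast, one gene at a time. The 4 genes closest to Lrp2 in coding length are Fat1, a giant protocadherin (13935 nt, TE 0.464), Dync1h1, the dynein heavy chain (13932 nt, TE 0.697), Plec, the cytoskeletal linker plectin (14073 nt, TE 0.365), and Mycbp2, a ubiquitin ligase (14238 nt, TE 0.285). All 4 were below Lrp2 (geometric mean TE 0.875). Lrp1, a receptor of the same family (13635 nt), had a TE of 0.838. It stood at rank 12 of the 79 longest genes, next to Lrp2 at rank 11, so a high TE for its length was not particular to Lrp2. The 4 closest to Cubn are Spen, a transcriptional corepressor (10929 nt, TE 0.314), Usp34, a deubiquitinase (10804 nt, TE 0.217), Smg1, a kinase of nonsense-mediated decay (10974 nt, TE 0.206), and Dmd, dystrophin (11034 nt, TE 1.19). Cubn (geometric mean TE 1.05) was above the first 3 of these and below Dmd, which had only 1.48 RPKM in RNA-seq. The 3 longest tested genes, Syne1 (26397 nt), Dst (23151 nt) and Macf1 (22065 nt), all cytoskeletal linkers, had TEs of 0.219, 0.203 and 0.262.

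**Figure D2:**
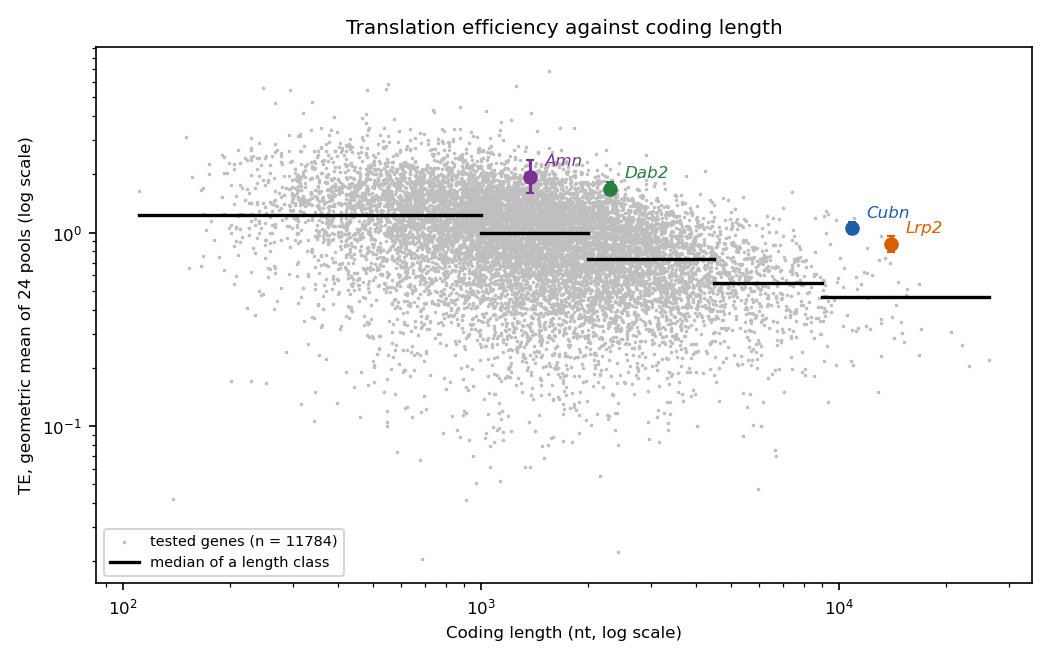
TE (geometric mean of 24 pools, log scale) against coding length (nt, log scale) for 11784 tested genes in grey, with the 4 members in colour (bars, SD over pools) and black lines at the median of each length class. Lrp2 and Cubn lie above the line of the longest class (median 0.464), at 0.875 and 1.05.

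The time courses of the members were shallow. In RNA-seq, 3 of the 4 members passed the test for a 24-h component (limma moderated F test on log2(RPKM + 0.1), Benjamini-Hochberg FDR under 0.05), against 48.6% of all 11863 genes. None reached the peak-to-trough fold of 1.5 used as a cutoff for a rhythmic gene, which 10.2% of all genes passed together with the FDR. Their folds of 1.17 to 1.25 were near the median of all genes, 1.20.

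Lrp2 transcript was high late in the night. Its timepoint means ran from 1070 RPKM at ZT10 to 1396 RPKM at ZT18, and the pools at ZT18, ZT20 and ZT22 held the 6 highest values, from 1288 to 1496 RPKM. The other 18 pools reached 1274 RPKM at most. The 6 pools were picked from these same values, so their separation is a description and not a test. The fitted curve peaked at ZT 22.1 ± 0.94 h (SE) with a peak-to-trough fold of 1.20 (log2 difference 0.27 ± 0.066, SE; limma adjusted p = 0.00596).

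Cubn transcript also was highest in the dark phase. Its timepoint means ran from 219 RPKM at ZT6 to 294 RPKM at ZT22. All pools from ZT0 to ZT8 lay between 198 and 243 RPKM, and all pools from ZT16 to ZT22 lay between 257 and 315 RPKM. The pools from ZT10 to ZT14 lay between 224 and 287 RPKM and overlapped with both. These stretches of the day were picked from the same values, as a description and not a test. The fitted peak was at ZT 17.9 ± 0.86 h (SE), with a fold of 1.25 (log2 difference 0.32 ± 0.072, SE; limma adjusted p = 0.00276).

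Dab2 transcript ran the other way. Its timepoint means were highest at ZT12 (177 RPKM) and lowest at ZT18 (137 RPKM), the timepoint at which Lrp2 was highest. The fitted peak was at ZT 10.1 ± 1.04 h (SE), with a fold of 1.17 (log2 difference 0.23 ± 0.062, SE; limma adjusted p = 0.0126). The call was lost when 12 separate timepoint levels replaced the cosine (adjusted p = 0.141).

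Amn had no 24-h component that passed the test. Its timepoint means ran from 125 RPKM at ZT16 to 172 RPKM at ZT8, but replicates of the same timepoint differed as widely, for instance 181 and 101 RPKM at ZT12. The fitted fold was 1.07 (limma adjusted p = 0.812). An E-box, the CACGTG motif bound by the CLOCK and ARNTL heterodimer, was found in the promoter window of Amn, in the stretch at chr12:111271058-111271087 (GRCm38.p6, plus strand), with the first base of the motif at position -26 from the transcription start. The motif is in capitals.
Amn promoter: gccccgcccggtCACGTGgggccctcggag
The letters were searched on both strands in windows from 250 bases before to 50 bases after the start, and 7.15% of 32851 mouse promoters hold them. They were not found in the windows of the other members, and neither the D-box letters TTATGTAA (0.938% of promoters) nor the letters AGGTCA (16.3%) were found in any of the 5 windows of the members.

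Summed marker levels of several cell types also varied with time of day, only in part with the timing of Lrp2 and Cubn. Their part in the result was not tested. The widest spread in RNA-seq was that of the 3 adipocyte markers, at low level, with 3.36 RPKM at ZT16 and 30.6 RPKM at ZT4 (9.10-fold). The principal cell sum varied 1.48-fold (highest at ZT16), the immune sum 1.48-fold (ZT6) and the podocyte sum 1.34-fold (ZT8). Summed RNA-seq levels of the 6 S3 segment markers differed 1.33-fold between timepoint means, with the highest value at ZT18 (8725 RPKM), where Lrp2 was highest, and the lowest at ZT2 (6567 RPKM). Most of this sum came from Slc27a2 (mean 4175 RPKM) and Acy3 (2117 RPKM). Neither passed the 24-h test in RNA-seq (limma adjusted p = 0.543 and 0.700), and 2 of the 6 S3 markers did. The 10 markers of the S1 and S2 segments, where megalin is best known, varied 1.10-fold, with the lowest mean at ZT10. Their highest mean was at ZT14 (10229 RPKM), where Lrp2 was low (1100 RPKM). The 4 thick ascending limb markers were also lowest at ZT10 (2963 RPKM) and highest at ZT16 (3866 RPKM), where Lrp2 was still low (1106 RPKM). The sum of the 7 hepatocyte markers was lowest at ZT10 (348 RPKM) and highest at ZT20 (543 RPKM), 1.56-fold apart and with none at 0 in any library. Most of this sum came from Ttr (mean 288 RPKM) and Apob (97.5 RPKM). Of the 6 tested hepatocyte markers, 3 passed the 24-h test in RNA-seq, against 48.6% of all genes. These were Apob (fitted peak at ZT 18.4), Alb (14.1 RPKM, fold 1.83, ZT 23.8) and Fgb (2.53 RPKM, fold 3.31, ZT 1.68). Ttr did not pass (limma adjusted p = 0.762). Cps1 did not pass the filter on low values, so the sum does not stand for all 7 markers. With log2 depth as a term in the model, an alternative added after seeing the data, the RNA-seq calls of Lrp2, Cubn and Dab2 were kept.

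**Figure D3:**
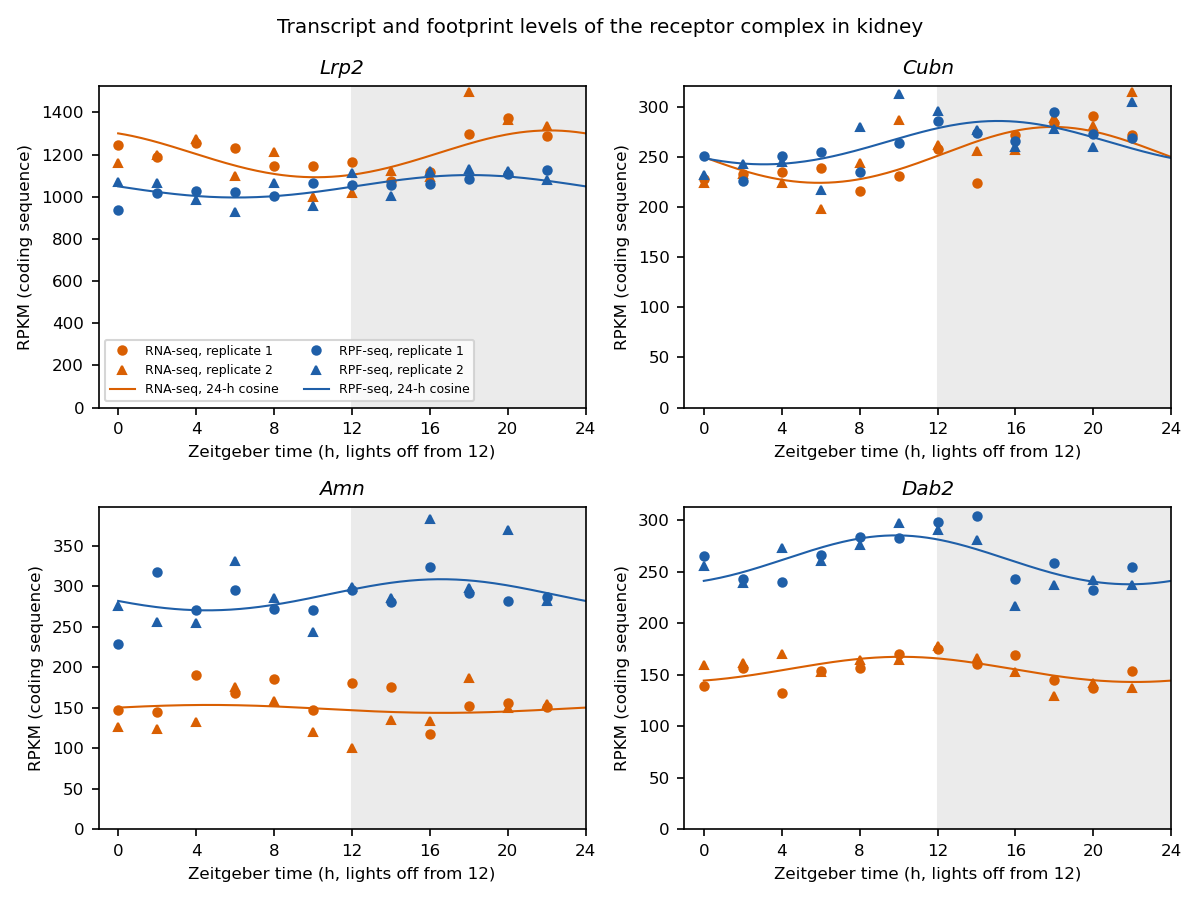
RNA-seq (orange) and RPF-seq (blue) RPKM of the 4 genes against Zeitgeber time (h); circles are replicate 1, triangles replicate 2, lines the fitted 24-h cosines and the grey area the dark phase. Lrp2 RNA is low from ZT10 to ZT16 and high from ZT18 to ZT22 (fitted peak at ZT 22.1), Cubn RNA is high from ZT16 to ZT22 (fitted peak at ZT 17.9), Dab2 peaks near ZT 10 in both assays, and the replicates of Amn scatter.

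In RPF-seq, 2 of the 4 members, Cubn and Dab2, passed the 24-h test, against 30.9% of all genes, and none reached the 1.5-fold cutoff, which 7.58% of genes passed with the FDR. Cubn footprints ran from 217 RPKM (ZT6, replicate 2) through a median of 265 to 313 RPKM (ZT10, replicate 2). Their timepoint means were lowest at ZT2 (235 RPKM) and highest at ZT12 (291 RPKM). The fitted peak was at ZT 15.1 ± 1.04 h (SE) with a fold of 1.18 (log2 difference 0.24 ± 0.065, SE; limma adjusted p = 0.0205). The call was lost after quantile normalisation (adjusted p = 0.161) and with 12 timepoint levels (adjusted p = 0.153).

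Dab2 footprints ran from 217 RPKM (ZT16, replicate 2) through a median of 260 to 304 RPKM (ZT14, replicate 1). The 8 pools from ZT8 to ZT14 all lay between 276 and 304 RPKM, above every other pool. This stretch of the day was picked from the same values, as a description. The fitted peak was at ZT 9.86 ± 0.84 h (SE) with a fold of 1.20 (log2 difference 0.26 ± 0.058, SE; limma adjusted p = 0.00417). The timepoint mean was 292 RPKM at ZT14 and 230 RPKM at ZT16, the widest step between neighbouring timepoints for this gene.

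Lrp2 footprints were flatter than the transcript. The timepoint means ran from 974 RPKM at ZT6 to 1114 RPKM at ZT20, and the fitted fold was 1.11 (log2 difference 0.15 ± 0.047, SE; limma adjusted p = 0.0526), just outside the threshold. The call was made when pool ZT0 replicate 1, ZT8 replicate 2 or ZT14 replicate 2 was left out (adjusted p = 0.0292, 0.0412 and 0.041). It was not made with log2 depth as a term (adjusted p = 0.159), with 12-h harmonics (adjusted p = 0.147) or with 12 timepoint levels (adjusted p = 0.505), and after quantile normalisation the fold was 1.02 (adjusted p = 0.88). Amn footprints were highest at ZT16 (timepoint mean 353 RPKM) and lowest at ZT0 (252 RPKM), with a fitted fold of 1.14 (limma adjusted p = 0.215).

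Whether footprints and transcript followed different time courses was asked with the 24-h component of TE, which passed in 17.1% of all genes and in 1 of the 4 members, Cubn. Cubn TE was lowest at ZT20 (timepoint mean 0.931) and highest at ZT14 (1.15), and all 12 pools from ZT4 to ZT14 lay between 1.07 and 1.22. The fitted TE peaked at ZT 9.09 ± 0.92 h (SE) with a fold of 1.16 (log2 difference 0.22 ± 0.052, SE; limma adjusted p = 0.0194). Cubn footprints peaked 2.82 ± 1.35 h (SE) before the transcript, given as a description. With 12-h harmonics added to the curve the difference between the peaks was -8.4 h. The TE call was lost with quantile normalisation (adjusted p = 0.0545), with log2 depth as a term (adjusted p = 0.095), without the pairing by pool (adjusted p = 0.288) and with 12 timepoint levels (adjusted p = 0.244).

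Lrp2 TE had a fold of 1.18, larger than that of Cubn, and missed the threshold (limma adjusted p = 0.0526). Its timepoint means lay between 0.937 and 1.00 from ZT10 to ZT16 and between 0.795 and 0.877 at all other timepoints, with a fitted peak at ZT 12.4 ± 1.13 h (SE). Without pool ZT0 replicate 2, ZT2 replicate 2 or ZT18 replicate 2 it passed (adjusted p = 0.0276, 0.0439 and 0.0349). With quantile normalisation, log2 depth as a term or 12 timepoint levels it did not (adjusted p = 0.0693, 0.124 and 0.291). Dab2 TE had a fold of 1.03 (limma adjusted p = 0.91). Its footprints and transcript peaked 0.257 ± 1.34 h apart (SE, again with the assays taken as independent). Amn TE had a fold of 1.22 but scattered most between replicates (20.7%), and missed the threshold (limma adjusted p = 0.357).

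**Figure D4:**
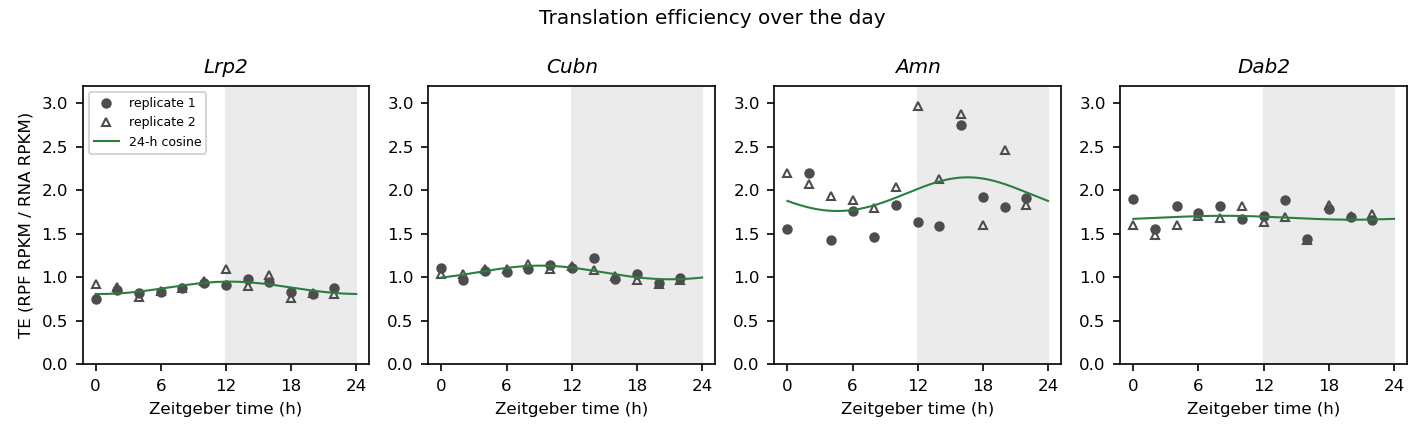
TE of the 4 genes against Zeitgeber time (h), with replicate 1 as filled circles, replicate 2 as open triangles and the fitted 24-h cosine in green; the grey area is the dark phase. Lrp2 and Cubn TE are highest around the light-dark transition with folds of 1.18 and 1.16, Dab2 is flat (1.03) and Amn scatters between replicates.

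Across the 24 pools, 1 of 12 pairs of members, 6 in each assay, had a correlation that passed Benjamini-Hochberg adjustment. Lrp2 and Dab2 transcripts moved against each other, with Pearson's r = -0.72 (permutation p = 8.0e-05, adjusted p = 0.00096) and Spearman's rho = -0.63 (permutation p = 0.0013, adjusted p = 0.0156). Without the 2 pools farthest from the Lrp2 median, r was -0.67 (permutation p = 0.00063, adjusted p = 0.00756), and within each replicate series it was -0.74, with an adjusted permutation p of 0.0359 in the replicate 2 pools and of 0.0755, outside the threshold, in the replicate 1 pools. The deviations of replicates from their timepoint mean gave r = -0.16 (permutation p = 0.503). The permutation over 24 pools ignores that replicates share a time of day. Both transcripts had called 24-h curves, with peaks at ZT 22.1 and ZT 10.1, so the r over all pools is not separate from their opposite timing. In RPF-seq the same pair had r = -0.40 (permutation p = 0.0517, adjusted p = 0.103). Lrp2 and Cubn, the receptors that bind each other, had r = 0.37 in RNA-seq (permutation p = 0.0718, adjusted p = 0.122) and 0.36 in RPF-seq (permutation p = 0.0814, adjusted p = 0.122). Libraries share depth and scaling between genes.

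The genes whose pattern was most like that of a member were found by Pearson's r over the 24 libraries of an assay, given as a description. For Lrp2 in RNA-seq they were Rps3a1 (r = 0.91), Ints11 (0.88) and Sars (0.88), and in RPF-seq Psmb3 (0.81), Aldh2 (0.80) and Adh5 (0.76). For Cubn in RNA-seq they were Gpr89 (0.90), Kmo (0.90) and Pigp (0.87), and in RPF-seq Ugt1a6a (0.82), Enpp1 (0.79) and Sar1b (0.79). For Amn in RNA-seq they were Stard10 (0.92), Exosc4 (0.90) and Gpx1 (0.89), and in RPF-seq Tysnd1 (0.84), Ptov1 (0.84) and Cope (0.84). For Dab2 in RNA-seq they were Slit2 (0.83), Smg6 (0.83) and Ik (0.80), and in RPF-seq Lonp2 (0.91), Med14 (0.89) and Suco (0.87). No gene was among the 3 closest in both assays for any member.

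Beside the members stand the other proteins of the endocytic route, given as counts with the same tests. Over the 8 lists of this route the median fold ran from 1.16 to 1.28 for transcripts, beside 1.20 for all genes, and from 1.09 to 1.22 for footprints, beside 1.18 for all genes. The median TE of all genes was 0.956. The list counts stand beside the share of all genes that passed, 48.6% in RNA-seq and 30.9% in RPF-seq, and 10.2% and 7.58% with the fold cutoff. Of 16 tested partners of the complex, 8 passed the 24-h test in RNA-seq and 4 in RPF-seq, none with a fold of 1.5. The receptor chaperone Lrpap1, which escorts megalin through the secretory pathway, had 422 ± 34.1 RPKM in RNA-seq (SD, n = 24) and a TE of 2.07, and its 24-h tests missed the threshold (limma adjusted p = 0.121 in RNA-seq and 0.405 in RPF-seq). Myo6, the motor that moves endocytic vesicles, had 158 ± 11.4 RPKM and a TE of 1.27.

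Of 26 clathrin coat and AP-2 genes, 12 passed in RNA-seq (48.6% of all genes) and 7 in RPF-seq (30.9%), again none with a fold of 1.5. Their TE was above the median gene in 9 (45.6% of all genes) and below it in 14 (44.8%). The clathrin heavy chain Cltc had 230 ± 22.8 RPKM (SD, n = 24) and a fold of 1.27 in RNA-seq with a peak at ZT 20.4, and the AP-2 subunit Ap2m1 had 202 ± 19.6 RPKM and a fold of 1.27 with a peak at ZT 9.43. Both passed in RNA-seq and neither in RPF-seq.

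Of 27 early and recycling endosome genes, 16 passed in RNA-seq and 10 in RPF-seq. Those with a fold of at least 1.5 in RNA-seq were Rab11b, a recycling GTPase (1.77, peak at ZT 5.82), and its effector Rab11fip3 (1.56, peak at ZT 5.08). Of 26 late endosome and lysosome genes, 18 passed in RNA-seq (48.6% of all genes) and 7 in RPF-seq (30.9%), and Rab7, the late endosome GTPase, reached 1.54-fold by transcript and 1.08-fold by footprints. The lysosomal membrane protein Lamp1 (870 ± 79.0 RPKM, SD, n = 24) had a fold of 1.16 that passed in RNA-seq (limma adjusted p = 0.0415). Of 26 genes of the endosomal proton pump and its chloride and proton exchangers, 15 passed in RNA-seq and 11 in RPF-seq, and Atp6v0c, a membrane subunit, had a fold of 1.63 by transcript and 1.07 by footprints.

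Of 13 genes of inherited proximal tubule dysfunction, 8 passed in RNA-seq and 6 in RPF-seq. One of these, Slc34a1, the main phosphate transporter of the proximal tubule (2387 ± 182 RPKM, SD, n = 24), passed in RNA-seq with a fold of 1.15 and a peak at ZT 10.2. Gatm, an enzyme of creatine synthesis, had a fold of 1.51 in RNA-seq with a peak at ZT 0.856. Of 12 other tested genes of the lipoprotein receptor family, 7 passed in RNA-seq and 3 in RPF-seq. By TE, 10 of them lay below the median gene (44.8% of all genes) and 1 above it (45.6%). Most genes of other lists lay above it: 18 of 27 early and recycling endosome genes, 20 of 26 late endosome and lysosome genes, 19 of 26 proton pump genes and 14 of 17 ligands and carriers. Coding length was not taken into account in these counts. Of 17 ligands and carriers that the receptors take up, 8 passed in RNA-seq and 5 in RPF-seq. The largest folds among these in RNA-seq belonged to plasma proteins at low level, Mup3 (2.26 RPKM, fold 8.27), Hpx (0.688 RPKM, fold 2.79), Apoa1 (2.97 RPKM, fold 2.17) and Hp (1.66 RPKM, fold 2.01), and the liver marker Alb stood at 14.1 RPKM.

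**Figure D5:**
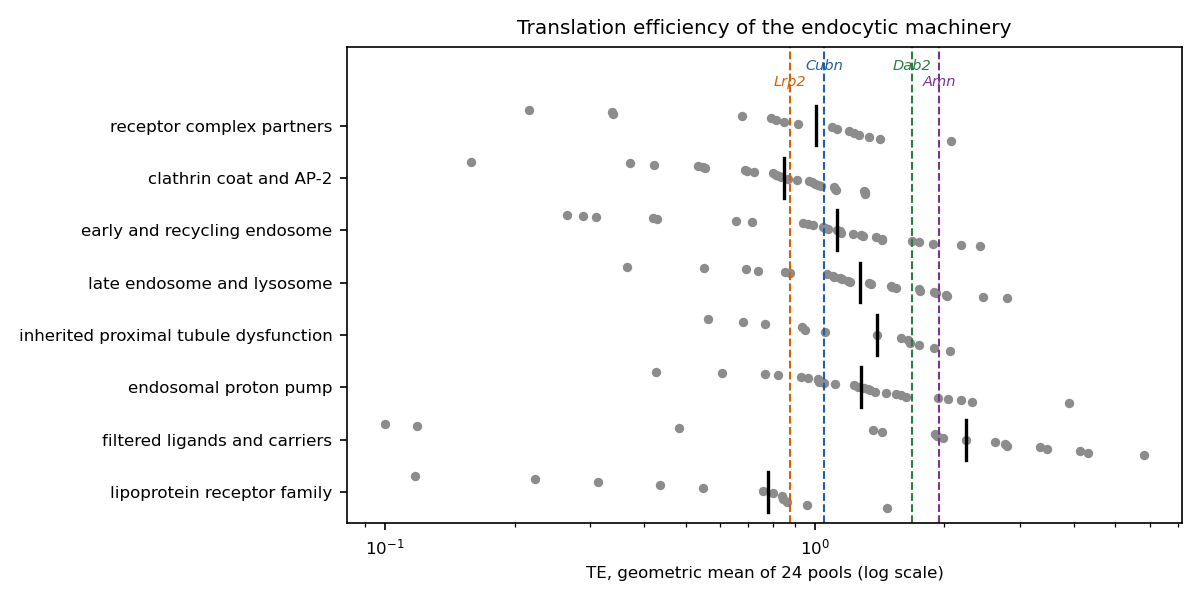
TE (geometric mean of 24 pools, log scale) of the tested genes in 8 lists of the endocytic route, each point a gene and each black bar the median of its list; dashed lines mark the 4 members. The medians run from 0.777 for the lipoprotein receptor family to 2.24 for the filtered ligands and carriers.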

How the data were processed

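RNA-seq and RPF-seq libraries came from the same 24 kidney lysate pools. Per the submitters' processing notes, the tools were CASAVA 1.82, cutadapt, Bowtie2 2.2.1, TopHat2 2.0.11, Cufflinks 2.2.1 and edgeR, on GRCm38.p2. The authors assigned reads to the coding part of each gene, scaled every library to its upper quantile and deposited RPKM values, which are not counts, so no count model was fitted and a change in total mRNA per cell cannot be seen. Depth was recovered from the steps between the 300 lowest values of a library, of which 96.7 to 99.0% were whole reads within a tolerance of 0.05. Which coding length the authors used for Lrp2 and Dab2 is not given in the sources used here, and the longest annotated one was taken for read numbers.

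A gene was kept if its median RPKM reached 0.5 in RNA-seq and in RPF-seq. Rhythms were fitted to log2(RPKM + 0.1) with limma 3.58.1 in R 4.3.3 (24-h cosine and sine, eBayes with a variance trend, Benjamini-Hochberg adjustment). TE was fitted on the log2 ratio of the 2 libraries of a pool. The remaining values and the figures were made with numpy 2.4.6, scipy 1.17.1, pandas 2.3.3 and matplotlib 3.10.9 under Python 3.11.15. Tests were checked on simulated data of 11863 genes. Rhythms with a simulated fold of 2 were recovered in 95% (RNA-seq), 94% (RPF-seq) and 94% (TE) of cases. With a simulated fold of 1.3, only 45%, 29% and 27% were recovered. Each simulated fold was given to 100 genes, far fewer than the 5761, 3663 and 2028 genes called in the real data. The adjustment was therefore stricter in the simulation, and its recovery may understate that of the tests used here. The fitted cosine folds of the members lay below 1.3, so a missed call does not show that a time course was flat. Members and gene lists were chosen with earlier results of these data known. Named genes outside the 4 members are, per list, those called with the fold cutoff (at most 4) and the 2 with the highest mean RNA-seq RPKM, plus the nearest in coding length and the most alike in pattern. Lrp1 is named besides, as the other lipoprotein receptor family gene among the longest genes. Pools are separate mice, and p-values measure the spread between them. Some genes that this rule would name are not reported here.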

Additional observations from a re-analysis of the deposited data

Results flagged for a closer look

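Cubn is the only member past the threshold in the test of the difference between RPF-seq and RNA-seq time courses. That test, the 24-h component of TE, gave a limma adjusted p of 0.0194 over 11863 genes (fold 1.16, 24 pools). Lrp2 had a larger TE fold, 1.18, and narrowly missed the threshold (limma adjusted p = 0.0526). The Cubn call was lost with quantile normalisation (adjusted p = 0.0545) and with separate timepoint levels (adjusted p = 0.244). It was also lost with depth as a term and without the pairing by pool. No group had the 4 to 10 samples needed to look for a sample far from the others, since each timepoint has 2.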

How the results depend on the processing

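Leaving out any single pool ended no call among the members, while a single replicate series often did. Over all pools or series left out in turn, the RNA-seq fold ran from 1.15 to 1.26 for Lrp2 and 1.22 to 1.28 for Cubn (the highest adjusted p was 0.144 and 0.137) and from 1.16 to 1.20 for Dab2 (0.156). The RPF-seq fold ran from 1.08 to 1.14 for Lrp2, 1.16 to 1.20 for Cubn and 1.19 to 1.23 for Dab2, and the TE fold from 1.15 to 1.21 for Lrp2 and 1.15 to 1.19 for Cubn. Counts of genes over all genes ran from 1200 to 6294 in RNA-seq and 722 to 1430 with the fold cutoff, from 460 to 3765 and 370 to 956 in RPF-seq, and from 0 to 2299 for TE. The count of 0 came from limma without replicate 1, where 1858 genes had an unadjusted p under 0.05, and without replicate 2 it was 2.

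With 12 timepoint levels the fold was 1.29 for Dab2 RNA-seq, 1.24 for Cubn RPF-seq and 1.23 for Cubn TE, none past the threshold, and the counts were 3674 and 2291 (RNA-seq, without and with the fold cutoff), 1520 (RPF-seq) and 101 (TE). Quantile normalisation gave 1.12 for Cubn RPF-seq and 1.15 for Cubn TE. The depth terms, chosen after seeing the data, gave 1.15 for Cubn TE and 426 TE genes, and 48 libraries without the pool gave 1.16 and 964. A pseudocount of 1 left 781 (RNA-seq) and 590 (RPF-seq) genes past the fold cutoff. The Akaike criterion called 7090 genes in RPF-seq and 6354 in TE, among them Lrp2 (1.11 and 1.18) and, in RPF-seq, Amn (1.14), and a median RPKM of at least 2 also brought Lrp2 past the threshold (adjusted p = 0.0484 and 0.0469).

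Centred on the mean gene, the TE of Lrp2 changed sign (0.0053 on the log2 scale, adjusted p = 0.841). The series left out in turn gave log2 differences of -0.15 to -0.12 for Cubn against Amn and 0.11 to 0.19 for Amn against Dab2 in RPF-seq, 0.062 to 0.36 for Amn against Dab2 in TE, and r of -0.74 for Lrp2 with Dab2 and -0.76 to -0.22 for Amn with Dab2 in RNA-seq. Without the 2 farthest pools, r of Lrp2 with Amn in RPF-seq was 0.56. With 12-h harmonics the Cubn peaks lay -8.4 h apart, so that the peak difference of Cubn depends on the shape of the curve.

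Replicate numbers do not pair the pools: differences between replicates had a mean r of 0.029 between timepoints in RNA-seq and 0.020 in RPF-seq. With the replicate number as a block, no rhythm call of a member changed and the counts were 5783, 3683 and 2161. For correlations the block was replaced by deviations of the replicates from their timepoint mean, which take out time of day as well, and these gave -0.16 for Lrp2 with Dab2. Under the alternatives other than leaving out 1 pool or 1 replicate series, 265 values were classed as unchanged. Another 11 were classed as moved, 8 as weaker, 6 as stronger and 1 as reversed. Gene counts and peak differences were classed too and have no side of a threshold, so unchanged allowed some change in size. Counting error of the members was at most 2.22%, while depth moved with time of day, and its part was tested only by the depth terms above.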
